A study of Mus musculus with 8 samples.

Results

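The respiratory chain of mitochondria was examined in mouse skin through its nuclear-encoded genes. Members were taken by name from the platform annotation. They are the genes whose symbol begins with *Ndufa*, *Ndufb*, *Ndufc*, *Ndufs*, *Ndufv*, *Cox4i*, *Cox5*, *Cox6*, *Cox7*, *Cox8*, *Uqcr* or *Atp5*, together with *Sdha*, *Sdhb*, *Sdhc*, *Sdhd*, *Cycs* and *Cyc1*. This gave 92 genes of the 18193 that have a probe set naming 1 gene only, and where several probe sets name a gene, the one brightest on average across the 8 arrays stands for it. A further 8 symbols of the same pattern, among them *Ndufs6* and *Ndufa11*, occurred only on probe sets shared by several genes and were not used.

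The arrays came from dorsal skin of female mice of the hairless strain Hos:HR-1. In 4 mice the AIN-93G diet, a purified rodent diet, held added collagen hydrolysate, a peptide mixture from fish scale, at 2 g per 100 g of diet, and 4 control mice ate AIN-93G alone. The mice were 9 weeks old at the start, ate the diets for 12 weeks and gave skin when 21 weeks old, so strain, sex, age and base diet were the same in both groups. The arrays cover 8 of the 16 mice of the study, which were housed 4 to a cage, and the cage behind each array was not used here. Whole powdered skin was measured, so fewer cells of a type and less RNA per cell cannot be told apart.

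As background, complexes I to IV pass electrons from NADH and succinate to oxygen and pump protons across the inner mitochondrial membrane, except complex II, which pumps none. Ubiquinone links complexes I and II to complex III, cytochrome c links complex III to complex IV, and complex V uses the proton gradient to make ATP. Most subunits are nuclear-encoded, and a few of complex IV exist as isoforms that replace each other in striated muscle, brown fat or testis. In the epidermis much of the ATP comes from glycolysis, while skeletal muscle and brown fat are rich in mitochondria.

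Deposited values were log2 numbers that hardly moved between arrays. Over the 92 genes the SD across the 8 arrays had a median of 2.96e-05 and lay between 8.88e-07 (*Ndufb1*) and 8.28e-02 (*Cox6a2*). Such numbers cannot be read as folds of RNA. Each difference (collagen minus control) is expressed in the gene's within-diet SD, and the level of an array is given as its deviation from the gene's 8-array mean in the same unit. Fits with another scaling, another model or fewer arrays use the SD found in that fit. Their values can therefore move because the SD moves, and are not in the same unit. Keratinocyte and fibroblast markers that define skin (*Krt5*, *Krt14*, *Krt10*, *Col1a1*, *Col3a1* and 6 others) were all 11 above the level filter, which left out the lowest 30% of genes, those with a mean under 6.68. Of the skeletal muscle markers, 35 of 36 were above it too. Of the respiratory genes 89 were above it. The 3 below were *Cox4i2* (mean 6.60), *Ndufb4* (6.0) and *Cox7b2* (5.81).

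No gene of the respiratory chain passed the test of the diets across all genes. Of 89 genes tested, 0 had an adjusted p below 0.05 in limma, where 0% of all 12735 genes did. At an unadjusted p below 0.05 stood 1 of 89, against 5.36% of all genes, and the diets did not overlap in 1 of 89, against 3.31% of all genes. Both are *Cox6b2*. The signs leaned upward: 59 genes were higher and 30 lower on the collagen diet, and their median was 0.18 SD, while 45.5% of all genes were higher and the median over all genes was -0.08 SD. Scaling moved the signs of all genes. A quartile of all values differed between arrays by up to 1.70e-03, far above the median SD of 2.96e-05 of the respiratory genes. Centring can thus add an offset larger than most of these genes vary. Values after centring, here and below, describe that shared offset as well as the gene. After median centring of the arrays 24 respiratory genes were higher and 65 lower (27.0% higher, median -0.14 SD), while 13.5% of all genes were higher and their median was -0.15 SD. After quantile normalization 18 were higher, 62 lower and 9 without direction (20.2% higher, median -0.62 SD), while 30.3% of all genes were higher and their median was -0.16 SD. There 41 of the 89 had the same value in at least 7 arrays, so many of these signs rest on 1 array. Medians of complexes below are as deposited. After centring they were -0.09 SD for complex I, -0.14 SD for complexes III and V, -0.17 SD for complex IV and 0.40 SD for complex II. The split also rested on single arrays, since 37 of 89 were higher without collagen replicate 4 and 73 without collagen replicate 1. Of 92 further probe sets of the tested genes, 61 (66.3%) had the same sign as the one used, against 57.6% over all genes.

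**Figure D1:**
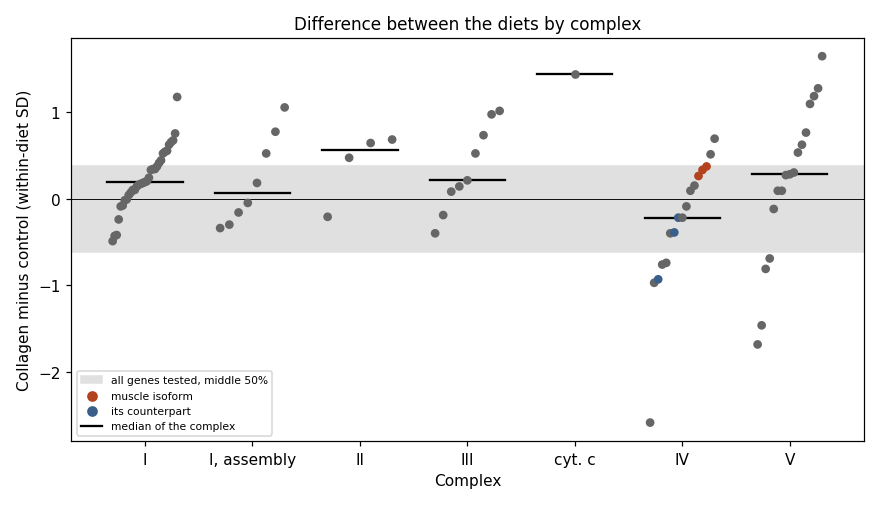
Difference between the diets for each tested gene (points; collagen minus control, in within-diet SD) by complex, with the median of each complex as a bar and the middle 50% of all genes tested (-0.62 to 0.38 SD) in grey. In the values as deposited, complex IV is the only complex with a median below 0 (-0.22 SD), and under other scalings others are too, and *Cox6b2* lies lowest at -2.58 SD.

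Complex I, which oxidises NADH, had 25 of 33 tested subunits higher and 8 lower, a median of 0.19 SD and a range of -0.49 to 1.17 SD. Without collagen replicate 4 the split was 12 higher and 21 lower, and without collagen replicate 1 it was 31 higher and 2 lower. Its 6 measured core subunits, which carry the flavin and iron-sulphur clusters or build the ubiquinone site (*Ndufs1*, *Ndufs3*, *Ndufs7*, *Ndufs8*, *Ndufv1* and *Ndufv2*), lay within 0.07 to 0.37 SD. After median centring 1 of the 6 was higher, where 13.5% of all genes were. The accessory subunit *Ndufc1* (probe set 1448284_a_at) had the smallest p. Its arrays deviated by -0.20, 0.48, 0.66 and 1.42 SD on the collagen diet, against 0.60, 0.25, -1.08 and -2.11 SD on the control diet. The groups overlapped, and the difference of 1.17 SD (95% interval -0.44 to 2.79) had an adjusted p of 0.999 in limma. *Ndufa12*, an accessory subunit, followed at 0.75 SD. Lowest were *Ndufa10* at -0.49 SD and *Ndufa6*, which binds the acyl carrier subunit *Ndufab1*, at -0.43 SD. The 8 assembly factors of complex I (the *Ndufaf* genes) were split evenly at 4 higher and 4 lower around a median of 0.07 SD.

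Complex II, which is also succinate dehydrogenase of the tricarboxylic acid cycle, had 3 of 4 subunits higher and overlapping diets in all 4. The flavoprotein *Sdha* deviated by -1.26, 0.02, 1.41 and 1.10 SD in the collagen arrays, against -0.38, 0.66, -0.42 and -1.13 SD in the control arrays. The iron-sulphur subunit *Sdhb* deviated by -1.30, -0.42, 1.33 and 1.34 SD in the collagen arrays, against -0.46, 0.36, -0.02 and -0.82 SD in the control arrays. In both genes collagen replicate 1 was lowest and control replicate 4 next. The differences were 0.64 SD for *Sdha* (95% interval -0.98 to 2.25) and 0.47 SD for *Sdhb* (-1.14 to 2.08). The membrane anchors differed by -0.21 SD (*Sdhc*) and 0.68 SD (*Sdhd*). For each of the 4 the adjusted p in limma was 0.999, and the median of the complex was 0.55 SD, with a range of 0.20 SD (without collagen replicate 3) to 1.19 SD (without collagen replicate 1) when 1 array was left out.

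Complex III, which moves electrons from ubiquinol to cytochrome c, had 7 of 9 genes higher with a median of 0.21 SD. *Uqcrb*, a subunit near the ubiquinone site, was at 1.01 SD and *Uqcr10*, a small membrane subunit, at 0.97 SD. The 2 lower genes were *Cyc1*, the cytochrome c1 subunit, at -0.40 SD and the core protein *Uqcrc1* at -0.19 SD, and all of these had an adjusted p of 0.999 in limma. Leaving out collagen replicate 1 moved the median of complex III to 1.26 SD, in the SDs of that fit. Cytochrome c itself (*Cycs*) deviated by -0.35, 1.45, 0.13 and 1.64 SD on the collagen diet, against 0.42, -0.13, -1.46 and -1.68 SD on the control diet. Its difference of 1.43 SD (95% interval -0.19 to 3.04) came with an adjusted p of 0.988 in limma, and the diets overlapped.

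Complex V, the ATP synthase, had 12 of 17 genes higher with a median of 0.28 SD. The 9 genes of its stalk and membrane part were all higher as deposited, by 0.09 to 1.64 SD, while the 3 genes for the rotating c ring (*Atp5g1*, *Atp5g2* and *Atp5g3*) were all lower, with none of the 12 passing the test. After median centring 3 of the 9 and 0 of the 3 were higher, and the median of the c ring genes was -0.32 SD in place of -1.46 SD. After quantile normalization 1 of the 9 was higher and 1 of the 3. The catalytic F1 part, with *Atp5a1* at 0.53 SD and *Atp5b* at -0.69 SD, had 3 genes higher and 2 lower. *Atp5l*, subunit g of the membrane part, came closest to the test. Its collagen arrays deviated by -1.17, 0.91, 1.92 and 1.61 SD, against -0.59, -0.81, -0.72 and -1.16 SD in the control arrays. All control arrays were thus low, collagen replicate 1 lay just below them, and the other 3 collagen arrays were high. The difference was 1.64 SD (95% interval -0.03 to 3.31, adjusted p = 0.944 in limma). Without collagen replicate 1 it was 6.05 of the SD of that fit, which is another unit. *Atp5mpl*, a small membrane proteolipid, was at 1.27 SD. Among the lower genes *Atp5g3* differed by -1.68 SD (adjusted p = 0.965 in limma) and *Atp5g2* by -1.46 SD (adjusted p = 0.988). After median centring these were -0.19 and -0.33 SD.

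Complex IV, cytochrome c oxidase, had 7 of 17 tested genes higher and 10 lower around a median of -0.22 SD, or 0.04 SD when all probe sets of a gene were averaged. Without collagen replicate 1 it was 0.15 SD, with 9 higher and 8 lower. *Ndufa4*, named after complex I but a subunit of complex IV, and its paralogue *Ndufa4l2* are counted here, at -0.22 and -0.40 SD. The testis isoform *Cox6b2* (probe set 1435275_at) was the only respiratory gene without overlap. Its collagen arrays deviated by -1.73, -1.78, -0.31 and -1.34 SD, against 0.05, 0.40, 2.26 and 2.45 SD in the control arrays. All collagen arrays were below the gene's mean and all control arrays above it. The difference of -2.58 SD (95% interval -4.19 to -0.96) did not pass over all genes (unadjusted p = 0.00727, adjusted p = 0.718 in limma), and the mean of 6.84 lay close to the level filter. After median centring it was -0.47 SD and after quantile normalization -0.70 SD. The other tested testis isoform, *Cox8c*, was at 0.51 SD. Of the general subunits *Cox5a* was at 0.69 SD and *Cox4i1* at -0.97 SD, and *Cox7c* was read by a probe set of low level (mean 6.77).

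The muscle isoforms of complex IV are *Cox6a2*, *Cox7a1* and *Cox8b*, which in striated muscle take the places of *Cox6a1*, *Cox7a2* and *Cox8a*. *Cox7a1* and *Cox8b* are also known from brown fat. *Cox6a2* (probe set 1417607_at) had deposited log2 values of 8.654, 8.787, 8.865 and 8.862 in collagen replicates 1 to 4, against 8.783, 8.836, 8.774 and 8.658 in control replicates 1 to 4. *Cox7a1* (1418709_at) had 7.587, 7.666, 7.730 and 7.740, against 7.673, 7.699, 7.663 and 7.605 in the control arrays. *Cox8b* (1449218_at) had 8.778, 8.864, 8.911 and 8.898, against 8.862, 8.903, 8.856 and 8.772 in the control arrays. In all 3 genes collagen replicate 1 and control replicate 4 were the lowest arrays, 1 in each diet, and the diets overlapped. *Cox6a2* averaged 8.792 ± 0.099 on the collagen diet and 8.763 ± 0.075 on the control diet (SD, n = 4 each). The difference of 0.029 (95% interval -0.112 to 0.171) was smaller than either SD. In SD units the 3 genes differed by 0.33, 0.37 and 0.26, each with an adjusted p of 0.999 in limma. Without those 2 arrays the median of the 3 was 1.03 SD, in the SDs of that fit, and none passed.

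**Figure D2:**
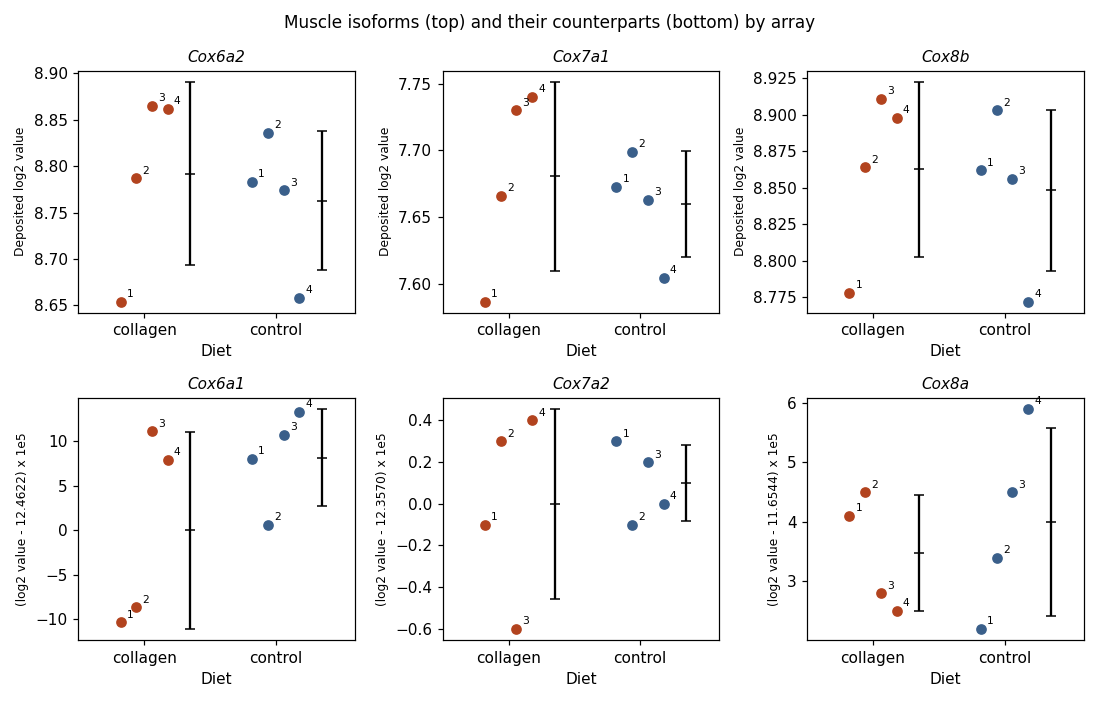
Values of the muscle isoforms of complex IV (top, deposited log2 value) and their counterparts (bottom, log2 value minus a constant, in units of 1e-05) by diet. Points are arrays with their replicate number, and bars are mean and SD (n = 4). Collagen replicate 1 and control replicate 4 lie lowest in all 3 muscle isoforms and are not both lowest in any counterpart.

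The counterparts varied far less on the deposited scale. The SD over all arrays of *Cox6a2* was 901 times that of *Cox6a1*, that of *Cox8b* 4396 times that of *Cox8a*, and that of *Cox7a1* 16549 times that of *Cox7a2*. The skeletal muscle markers had a median SD of 7.51e-02, against 1.99e-05 over all genes tested. How far these ratios reflect the RNA was not tested. Among 12735 genes tested, the SD of *Cox6a2* ranked 32, that of *Cox7a1* 63 and that of *Cox8b* 64. *Cox6a1* had values of 12.462096, 12.462113, 12.462311 and 12.462279 in the collagen arrays, against 12.462280, 12.462206, 12.462307 and 12.462333 in the control arrays. Control replicate 4, lowest or next to lowest in the muscle isoforms, was highest here. *Cox6a1* differed by -0.93 SD (95% interval -2.55 to 0.68), *Cox8a* by -0.39 SD and *Cox7a2* by -0.22 SD, each with an adjusted p of 0.999 in limma. The second probe set of *Cox6a2* (1457633_x_at) differed by 0.46 SD, that of *Cox6a1* by -1.19 SD and that of *Cox7a2* by -0.94 SD. The further probe sets of *Cox8a* differed by -0.70 SD and, at a level below the filter, by 0.25 SD.

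Promoters of muscle isoforms and counterparts were searched because collagen replicate 1 and control replicate 4 were the 2 lowest arrays in every muscle isoform and in no counterpart. Only the promoters with a match to a motif described below are printed, those of 1 muscle isoform and 2 counterparts. The windows run from 250 bases before to 50 after the annotated start, 5′ to 3′ (RefSeq, GRCm38.p6). Capitals mark matches on either strand to 5 motifs. The first is the motif of NRF1, a transcription factor that regulates many respiratory genes. The motif of the ETS factors, which include the respiratory gene regulator GABP, was searched as CCGGAAG. The motif of the ERR nuclear receptors, known for their role in oxidative metabolism, was searched as AAGGTCA. The E-box form that myogenic factors bind in muscle genes was searched as CAGCTG. The box that positions the start of transcription in some promoters was searched as TATAAA. No motif overlaps another in these windows. *Cox8b* (chr7:140900397-140900696, minus strand), *Cox8a* (chr19:7217567-7217866, minus strand) and *Cox6a1* (chr5:115348909-115349208, minus strand) read:
Cox8b: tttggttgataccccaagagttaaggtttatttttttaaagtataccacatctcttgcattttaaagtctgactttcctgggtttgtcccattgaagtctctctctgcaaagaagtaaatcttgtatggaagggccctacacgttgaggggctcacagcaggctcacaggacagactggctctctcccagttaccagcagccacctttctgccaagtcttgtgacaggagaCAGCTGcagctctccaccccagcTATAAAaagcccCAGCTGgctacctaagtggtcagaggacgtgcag
Cox8a: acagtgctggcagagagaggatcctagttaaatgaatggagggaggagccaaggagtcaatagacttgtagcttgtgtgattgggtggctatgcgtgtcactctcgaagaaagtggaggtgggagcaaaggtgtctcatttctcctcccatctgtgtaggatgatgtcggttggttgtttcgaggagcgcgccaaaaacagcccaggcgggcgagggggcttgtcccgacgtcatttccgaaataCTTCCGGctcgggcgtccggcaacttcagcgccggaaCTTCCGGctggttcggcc
Cox6a1: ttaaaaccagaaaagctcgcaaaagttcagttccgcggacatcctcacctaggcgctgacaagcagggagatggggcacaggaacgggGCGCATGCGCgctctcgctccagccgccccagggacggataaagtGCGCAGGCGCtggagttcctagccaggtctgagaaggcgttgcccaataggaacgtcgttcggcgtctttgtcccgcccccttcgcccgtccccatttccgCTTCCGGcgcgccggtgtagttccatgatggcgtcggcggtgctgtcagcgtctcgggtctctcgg
The muscle isoform *Cox8b* holds 2 E-box matches and 1 TATA box match and none of the other motifs. Its counterpart *Cox8a* holds 2 ETS matches, and *Cox6a1* holds 2 NRF1 matches and 1 ETS match. The windows of *Cox7a1* and *Cox7a2* hold none of the 5 motifs, and *Cox6a2* had no annotated window. *Cox7a1* thus had the array pattern of the muscle isoforms without a match. A link between motifs and the array pattern was not tested. Matched by gene ID, 75 of the 92 genes had 80 promoter windows. NRF1 letters occurred in 18 of them (22.5%, against 4.6% of all 32851 windows and 6.4% of those of protein-coding genes), and ETS letters in 19 (23.8%, against 8.9% and 11.6%). ERR letters occurred in 8 (10.0%, against 4.7% and 4.1%) and the E-box in 6 (7.5%, against 16.3% and 15.6%). TATA box letters occurred in 9 (11.2%, against 13.6% and 12.6%). The windows of respiratory genes had a median GC content of 59.0%, against 56.3% in protein-coding genes. A match is a run of letters and not a shown binding site.

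The main pattern in these genes ran between arrays and not between diets. Collagen replicate 1 was below the gene's mean in 82 of 89 tested genes (92.1%, against 46.2% of all genes tested) and control replicate 4 in 75 (84.3%, against 45.2%). Both were the lowest pair of arrays in 44 genes, which is 49.4% against 5.9% over all genes. Collagen replicate 4 was the highest array in 49 of 89 (55.1%, against 11.1%). These counts describe the arrays, without a test. The pair was lowest in 23 of 33 genes of complex I, 3 of 4 of complex II and 7 of 9 of complex III, and in 6 of 17 of complex IV, 4 of 17 of complex V and 1 of 8 complex I assembly factors. In 14 genes control replicate 4 was above the mean, and 8 of these belong to complex IV. They include *Cox6b2* at 2.45 SD, *Cox8a* at 1.65 SD, *Ndufa4l2* at 1.5 SD and *Cox6a1* at 1.05 SD. *Cox7a2l*, a factor that joins complexes III and IV, ran against the pattern in collagen replicate 1 at 1.25 SD.

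**Figure D3:**
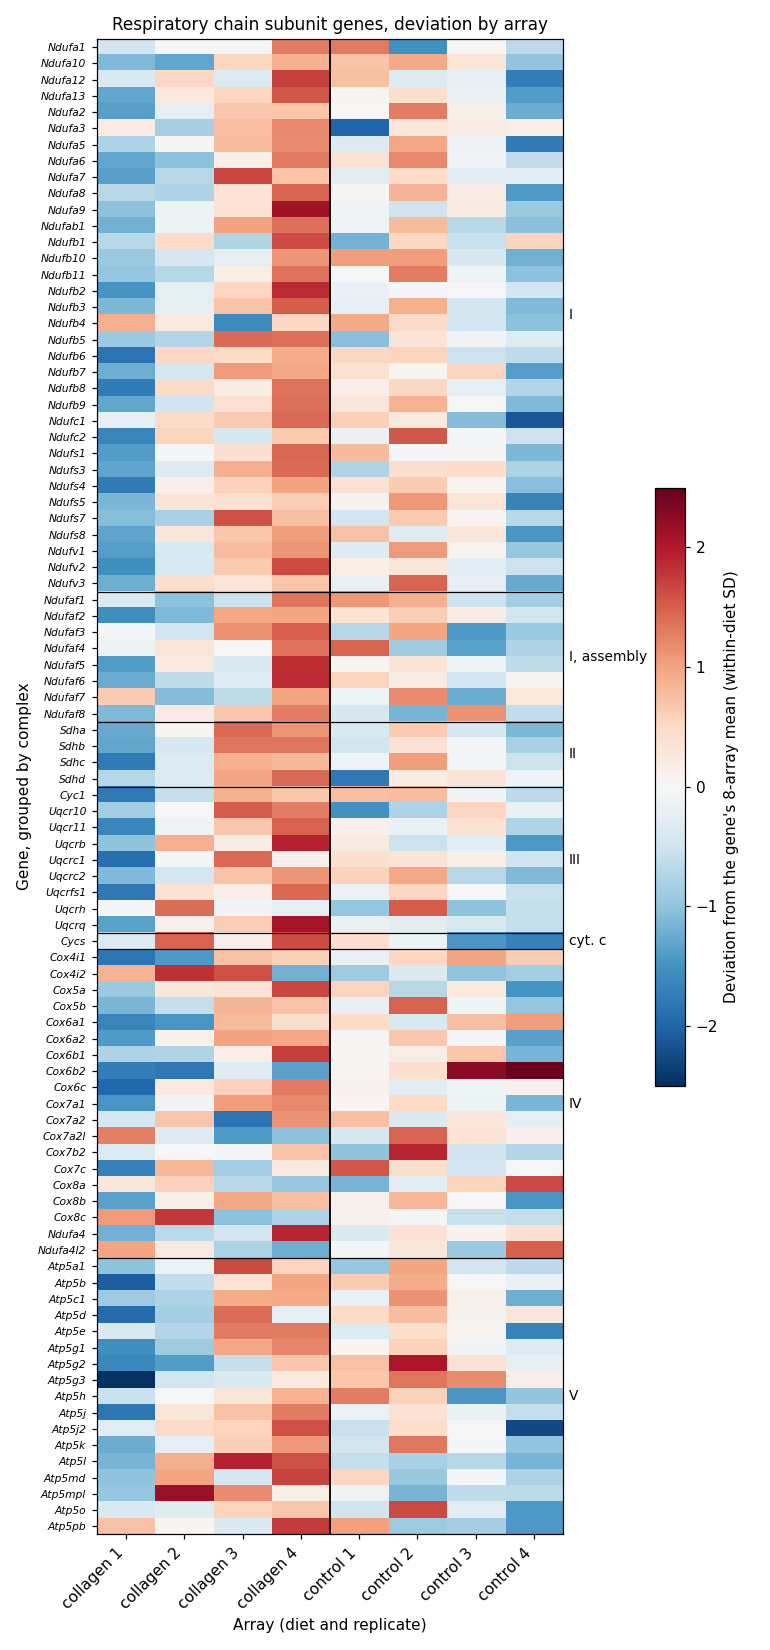
Deviation of each of the 92 genes from its 8-array mean (colour, in within-diet SD; red above, blue below) in the 4 collagen-diet and 4 control-diet arrays, with genes grouped by complex. Collagen replicate 1 and control replicate 4 are blue and collagen replicate 4 is red in most genes of complexes I, II, III and V.

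Skeletal muscle markers moved with this pattern at its low end. The mean deviation of the 35 muscle markers was -1.32, 0.08, 1.03 and 0.81 SD in collagen replicates 1 to 4, against 0.18, 0.35, 0.20 and -1.33 SD in control replicates 1 to 4. That of the 86 respiratory genes other than the muscle isoforms was -1.02, -0.13, 0.41 and 1.03 SD in the collagen arrays, against 0.04, 0.42, -0.09 and -0.66 SD in the control arrays. The muscle markers were highest in collagen replicate 3 (in 28 of 35 genes), and the respiratory genes in collagen replicate 4. Both sets were lowest in the same 2 arrays, 1 of each diet. White adipocyte markers were at 0.39 and 0.67 SD in those 2 arrays, and all genes tested at 0.06 and 0.15 SD. Brown adipocyte markers were at -0.29 and 0.61 SD there, and *Ucp1*, the uncoupling protein that defines that cell type, was below the level filter. By diet, as deposited, 34 of 35 muscle markers were higher (median 0.26 SD), 5 of 10 white and 3 of 7 brown adipocyte markers were higher (medians -0.11 and -0.43 SD), and 9 of 11 skin markers were higher (median 0.63 SD). After median centring 34 muscle, 4 white adipocyte, 2 brown adipocyte and 5 skin markers were higher, with a median of -0.02 SD for skin. After quantile normalization 4 of the 11 skin markers were higher (median -0.71 SD). None of these markers passed, with *Cidea*, a lipid droplet protein on the brown adipocyte list, furthest at -3.59 SD (adjusted p = 0.545 in limma). Its mean level was 11.6, against 6.29 for *Ucp1*, and whether it is read from brown fat in this skin was not tested. Because 2 arrays stood apart in muscle markers, the relation across arrays was computed over the 6 others only. Over the 89 genes Pearson's r with the muscle markers was positive in 77 (86.5%, against 47.8% of all genes tested), with a median of 0.54 against -0.03. A positive r with an exact two-sided permutation p below 0.05 was found for 11 of 89 (12.4%, against 3.8% of all genes tested). The 11 include the muscle isoforms *Cox6a2*, *Cox7a1* and *Cox8b*, which are themselves genes of striated muscle. Among the 27 genes chosen for naming, 5 had an unadjusted permutation p of r below 0.05, against 6.6% of all genes tested with either sign. These 5 were the 3 muscle isoforms, named because they are such isoforms, and *Sdha* and *Sdhb*. After Benjamini-Hochberg adjustment over the 27, 0 passed (smallest adjusted p = 0.0938 by r and 0.367 by Spearman's rho). With 6 arrays the p of r cannot go below 0.00139, so a single gene at that p would have an adjusted p of 0.0375, or 0.124 if adjusted over the 89. For rho the limit is higher, since a rho of 1.0 gave an exact permutation p of 0.00278. *Sdhb* had r = 0.96 (exact permutation p = 0.00694, rho = 0.89, p = 0.0333), *Cox7a1* r = 0.94 (p = 0.0139, rho = 0.77, p = 0.103) and *Cox6a2* r = 0.91 (p = 0.0111, rho = 0.77, p = 0.103). The adjusted p for r was 0.0938 for each of these 3 genes. The part of attached muscle in the levels of the respiratory genes was not tested.

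**Figure D4:**
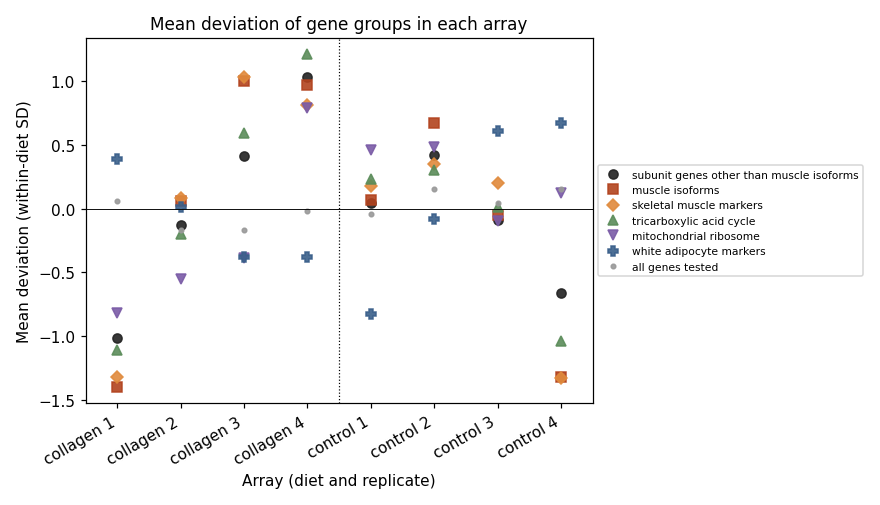
Mean deviation (in within-diet SD) of gene groups in each array, collagen diet at left and control diet at right. Respiratory subunit genes, muscle isoforms, skeletal muscle markers and tricarboxylic acid cycle genes are all lowest in collagen replicate 1 and control replicate 4, while white adipocyte markers are above 0 there.

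Other mitochondrial genes were compared, as deposited, from the same fit, and no gene of any of these lists passed. The 15 tricarboxylic acid cycle genes had 10 higher and 5 lower (median 0.39 SD), led by *Sucla2*, a subunit of succinyl-CoA ligase, at 1.35 SD and *Fh1*, fumarase, at 1.02 SD. Their mean deviations were -1.11 SD in collagen replicate 1 and -1.04 SD in control replicate 4. Carriers and porins had 8 of 11 higher (median 0.29 SD), with the outer membrane channel *Vdac1* at 1.30 SD. After median centring 5 of the 15 cycle genes and 5 of the 11 carriers and porins were higher, where 13.5% of all genes were. Assembly factors outside the *Ndufaf* family had 16 higher and 17 lower (median -0.03 SD), with *Atpaf2*, which assembles F1, at -1.92 SD (unadjusted p = 0.0419, adjusted p = 0.923 in limma). Regulators of mitochondrial biogenesis had 7 higher and 8 lower (median -0.34 SD), with *Gabpb1*, the beta subunit of GABP, at -1.13 SD.

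Mitochondrial ribosome and fatty acid oxidation genes were mostly lower as deposited. Of 75 mitochondrial ribosomal protein genes 61 were lower and 14 higher (median -0.42 SD). At an unadjusted p below 0.05 in limma stood 2 of the 75, against 5.36% of all genes tested. *Mrps34* was at -2.22 SD and *Mrps12* at -1.79 SD, with adjusted p of 0.809 and 0.905 in limma. Their mean deviation was -0.82 SD in collagen replicate 1 and 0.79 SD in collagen replicate 4, the lowest and the highest array as for the respiratory genes, and 0.12 SD in control replicate 4, where that of the respiratory genes was -0.68 SD. Of 14 fatty acid oxidation genes 10 were lower and 4 higher (median -0.42 SD). Its leading genes were *Hadha*, which encodes a subunit of the trifunctional protein, at -2.69 SD and *Echs1*, enoyl-CoA hydratase, at -2.31 SD. These 2 were named because they had the smallest p of the list. In both the diets did not overlap, which held for 3.31% of all genes tested. Neither passed (adjusted p = 0.712 and 0.820 in limma). For scale, 54.5% of all genes tested were lower. After median centring 73 of the 75 and 12 of the 14 were lower, where 86.5% of all genes were. Cytosolic ribosomal protein genes had 16 higher and 29 lower (median -0.19 SD). Whether these lists differ from the respiratory genes was not tested.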

How the data were processed

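Expression was measured on 8 one-colour oligonucleotide arrays, 4 per diet, from biotin-labelled RNA made from 200 ng of total RNA, per the labels' protocols. The deposited values were taken as log2 because they span 5.34 to 14.27. R 2.7.2 is named by the submitters' processing notes. The method of probe set summary and array scaling was not given in the sources used here. No signal over background was used, so precision rests on the number of arrays and their spread. The labels call the samples biological replicates.

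Of 45037 probe sets without controls, 34945 name 1 gene symbol, 932 several and 9160 none in the platform annotation. Per gene the probe set with the highest mean was kept, and genes in the lowest 30% by mean were left out. The diets were compared with limma 3.58.1 under R 4.3.3 (moderated two-sided test with intensity trend, 6 residual and 0.61 prior degrees of freedom) over 12735 genes, and p was adjusted by Benjamini-Hochberg and called below 0.05. In simulated arrays with 200 changed genes, 17.9% of changes by 3 SD, 91% of those by 6 SD and 97% of those by 10 SD were called, with 0 of the wrong sign. The simulated noise was independent between genes and arrays. Genes of the real arrays deviated together, so these rates need not hold for them.

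Genes named are the muscle isoforms with their counterparts, complex II, *Cycs* and *Cyc1*, and the 2 smallest p in each direction in complexes I, III, IV and V. The rule adds the 3 largest SDs, which are the muscle isoforms, and up to 2 leading genes of each other list. Genes given as exceptions to the array pattern, or as parts of a complex, were chosen after their values were seen. The members and lists were chosen with earlier results of these data known. The relation to muscle markers was tested for the 27 named genes and described over all tested genes. In the promoters each motif was searched on both strands. Same-numbered arrays deviated together little (correlations of -0.072 to 0.185), so the main fit did not pair them. Such correlations cannot show that the mice were unpaired. Alternatives were other filters, normalizations, variance models, array weights, a replicate block, the mean of probe sets and leaving out arrays.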

Additional observations from a re-analysis of the deposited data

How the results depend on the processing

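In all 18 alternative fits 0 respiratory genes had an adjusted p below 0.05, and 0 had one below 0.10 with all arrays. The median difference moved between -0.62 SD (quantile normalization) and 0.70 SD (without collagen replicate 1), and was 0.19 SD with the lowest 50% left out. Each of these is in the SDs of its own fit. Pairing by replicate number as a block gave a median of 0.15 SD and changed no call, with 2 genes at an unadjusted p below 0.05 against 1 without it. That count was 8 without collagen replicate 1, 4 without collagen replicate 4 or control replicate 1, and 3 without both arrays low in muscle genes. It was 0 after median centring or with the lowest 50% left out. In that last fit *Cox6b2*, the gene at that p in the main fit, was itself left out. The share of all genes at that p in these fits is not given here, so the counts cannot be read as an excess. After quantile normalization 41 of 89 genes had the same value to 9 decimals in at least 7 arrays, and 9 genes, *Sdhb* among them, had equal diet means. When 7 arrays are equal, the difference is 0.71 SD in size whatever the gene does, and its sign comes from 1 array. Cytochrome c was at -0.71 SD there. Quantile normalization turned *Sdha* (-2.0 SD), *Sdhd* (-0.54), *Ndufc1* (-0.28), *Uqcr10* (-0.27), *Cox8c* (-0.27) and *Atp5g2* (0.71). It put *Cycs*, *Ndufa12*, *Uqcrb*, *Cox5a*, *Atp5l* and *Atp5mpl* each at -0.71 SD, the size that such ties give. Median centring turned *Uqcrb* (-0.11), *Cox8c* (-0.09) and *Atp5l* (-0.07). Leaving out the 2 arrays low in muscle genes turned *Sdhc* (0.21) and *Uqcrc1* (0.36). Leaving out each array in turn gave ranges of -0.07 to 1.17 SD for *Cox6a2* and -0.22 to 0.95 SD for *Cox8b*, with the negative values without control replicate 4 (both) or collagen replicate 3 (*Cox8b*, -0.02). The ranges were -0.10 to 0.80 SD for the median of complex I, 0.20 to 1.19 for II, -0.37 to 0.15 for IV, 0.02 to 0.60 for V, -0.22 (without collagen replicate 4) to 1.26 SD (without collagen replicate 1) for the median of complex III, -0.56 to 0.51 for *Sdhc*, -0.81 to 0.16 for *Cyc1*, -0.91 to 0.67 for *Uqcrc1*, -0.72 to 0.54 for *Cox7a2* and -1.0 to 0.13 for *Cox8a*. None of these values passed the test, and the causes were not tested. The relation to muscle markers, when run over all 89 genes (an alternative chosen after seeing the data), gave 0 adjusted p below 0.05, and none was computed with fewer than 6 arrays.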
